A study of Arabidopsis thaliana with 26 samples.

Results

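The subject is 95 probe sets of the Arabidopsis thaliana leaf transcriptome that stood near their light level after 1 day of darkening and below it by day 6, in pif5 knockout leaves and in Col-0 leaves alike. They were chosen from 26676 probe sets by their group means on the log2 scale. A member had a day 1 change from light of less than 0.5 in size in each genotype and a day 6 change of -0.8 or lower in each genotype. The rule allowed 200 probe sets and 95 met it, so all 95 were kept. They made up 0.356% of the table and 4.38% of the 2170 probe sets whose day 6 change reached -0.8 in both genotypes. Of those 2170, 1895 were already lower by at least 0.5 at day 1 in both genotypes and are called early falls here, and 180 had other day 1 changes.

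The study used leaf blades harvested at noon from short-day plants. Its groups were a PIF5 knockout line (pif5-621 in the design text) in light and with individual leaves darkened for 1, 3, 6 and 12 days, and the Col-0 wild type in light and with leaves darkened for 1, 3 and 6 days. Fully expanded leaves, 2 per plant, were covered with foil-coated mittens while the rest of the rosette kept its normal light and dark cycle, and light-grown leaves were the day 0 group. There were 3 single-colour arrays per group and 2 for pif5 at day 12. The labels give no plant age and no batch. Whether the replicates are separate plants is not stated either, and the p-values cover only the spread among arrays, which may be technical. Each genotype has a single light group, so darkening and elapsed time cannot be told apart. In whole leaf blades, fewer cells of a type and less RNA per cell cannot be told apart.

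A leaf that is darkened by itself on a lit plant enters senescence. During this program chlorophyll and photosynthetic proteins are broken down and nitrogen and carbon are exported to the rest of the plant. PIF5 is a basic helix-loop-helix transcription factor that accumulates in darkness, where light-activated phytochrome no longer drives its degradation. It is known as a promoter of dark-induced leaf senescence, and mutants lacking it stay green longer.

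Probe sets are cited by their identifier in the table. The platform annotation lists 1 gene for 56 members, several for 3 and none for 36, but too few of its names could be checked against the measured levels to rely on them. Of 38 antenna and Calvin cycle genes, which are among the most abundant leaf transcripts, 4 had a row, and 2 of these 4 rows lay among the top 10% of the table in light and 1 below its median. No member is therefore given a gene name or a function, and the leaf tissue and the knockout are taken from the labels. None of the 144 genes in 14 lists of photosynthesis, senescence, hormone, clock and cell type genes was listed for a member; 19 of them had a row anywhere in the table.

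The array values were close within groups. The highest array median was 4.33, replicates of a group correlated with r between 0.981 and 0.991, and no pair of arrays held identical values. The replicate SD of the moderated fit had a median of 0.20 over the members and 0.17 over all probe sets.

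By the choice itself, members were lower at day 6 in both genotypes, and their size of fall was uneven. The day 6 change from light ran from -3.26 to -0.80 in pif5, with a median of -1.06, and from -6.49 to -0.80 in Col-0, with a median of -1.36. A change of -1 or lower, which is at least 2-fold, was present at 53 members in pif5 and 70 in Col-0, and one of -2 or lower at 6 members in pif5 and 19 in Col-0. The Col-0 change was the larger at 62 members and the pif5 change at 33. The pif5 change had a median of 81.3% of the Col-0 change, was at least 75% of it at 58 members, and was under 50% of it at 15. These values chose the members and carry no test.

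**Figure D1:**
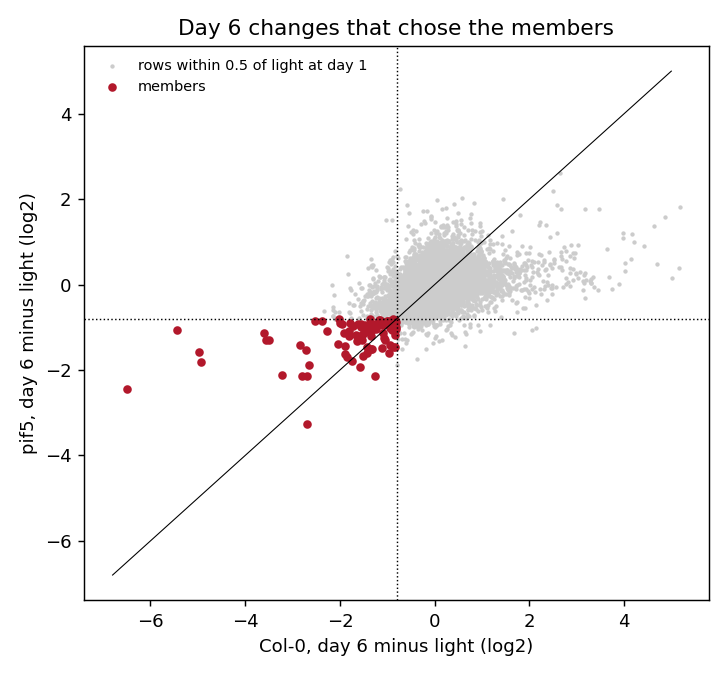
Day 6 change from light in Col-0 (x axis, log2) and in pif5 (y axis, log2) for the 17854 probe sets within 0.5 of light at day 1 in both genotypes (grey) and the 95 members (red). Dotted lines mark the limit of -0.8 and the solid line equal change. The Col-0 changes of the members reach -6.49 and the pif5 changes -3.26.

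The limits pass through a continuous range of values. The last 3 members were 13407639, 13470048 and 13353381, whose smaller day 6 fall was -0.81, -0.80 and -0.80. The first probe sets outside were 13459218, 13366147 and 13495641, whose smaller fall rounded to -0.80 for each. The day 1 limit also lay close to many members. A day 1 change of 0.3 or more in size was present at 47 members in pif5 and 39 in Col-0, and 31 members were under 0.3 in both genotypes. The day 1 change was below 0 at 83 members in pif5 and 59 in Col-0, with medians of -0.27 and -0.15 as deposited. With quantile normalization these medians were -0.13 in pif5 and -0.0045 in Col-0. With arrays centred on their medians they were -0.25 and -0.16. How far the members were already lower at day 1 thus depended on scaling.

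In the deposited values the median change from light was lower at each later day in both genotypes. The step to day 1 in Col-0 was not firm, with a median of -0.0045 under quantile normalization. After the deposited day 1 medians given above, the median change from light reached -0.78 at day 3 in pif5. It was -1.06 by day 6 and finally -1.19 by day 12, and this last step was small. In Col-0 the median had reached -1.01 at day 3 and ended with -1.36 by day 6. Over all probe sets the medians at day 3 were 0.02 in pif5 and 0.05 in Col-0. At day 3 the median share of a member's day 6 change that had been reached was 67.3% in pif5 and 73.0% in Col-0. Computed array by array it lay between 57.7% and 79.1% over the 3 pif5 arrays and between 72.0% and 74.5% over the 3 Col-0 arrays. These shares reuse the day 0 and day 6 arrays of the rule and are descriptive. The early falls had reached 98.2% in pif5 and 92.0% in Col-0 by day 3. Their definition requires a fall at day 1, which favours a larger share by day 3 than in the members.

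**Figure D2:**
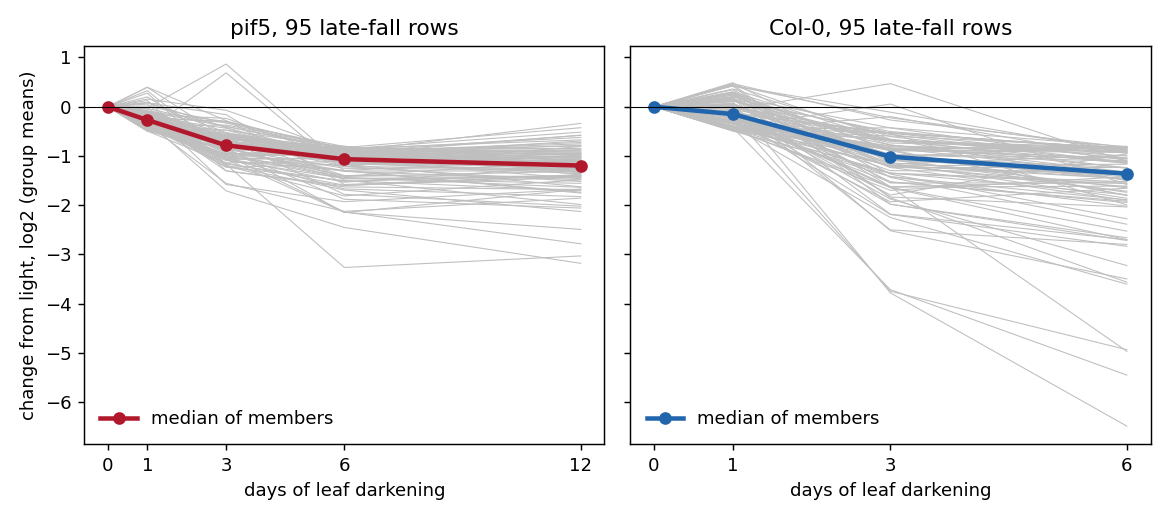
Change from light (y axis, log2, group means) against days of darkening (x axis) for each of the 95 members (grey lines) and their median (thick line), in pif5 (left, to day 12) and Col-0 (right, to day 6). The median reaches -0.78 at day 3 and -1.19 at day 12 in pif5, and -1.01 at day 3 and -1.36 at day 6 in Col-0.

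Members differed in when the fall came. The level stepped down from day 1 to day 3 and again from day 3 to day 6 at 84 members in pif5 and 77 in Col-0. Less than 25% of the day 6 change had been reached at day 3 at 6 members in pif5 and 4 in Col-0, and between 50% and 75% at 40 members in pif5 and 39 in Col-0. The full day 6 change or more had been reached at day 3 at 8 members in pif5 and 14 in Col-0. At day 12 the pif5 mean was within 0.3 of its day 6 mean at 67 members. It was below the day 6 mean at 57 and above it at 38, with a median difference of -0.05.

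On single arrays the set moved as follows. The median level over the members was 6.55, 6.48 and 6.51 on the pif5 light arrays and 6.27, 6.30 and 6.41 after 1 day. After 3 days it was 6.01, 5.88 and 5.65 in pif5, after 6 days 5.29, 5.12 and 5.51, and after 12 days 5.25 and 5.19. In Col-0 it was 6.71, 6.37 and 6.23 in light and 6.57, 6.48 and 6.13 after 1 day. After 3 days it was 5.11, 5.06 and 5.24 in Col-0, and after 6 days 4.52, 4.43 and 4.72. Light and day 1 arrays overlapped in Col-0. At day 3 every pif5 array lay above every Col-0 array, with pif5 replicate 3 the lowest of its group, and the day 6 and day 12 arrays of pif5 overlapped.

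**Figure D3:**
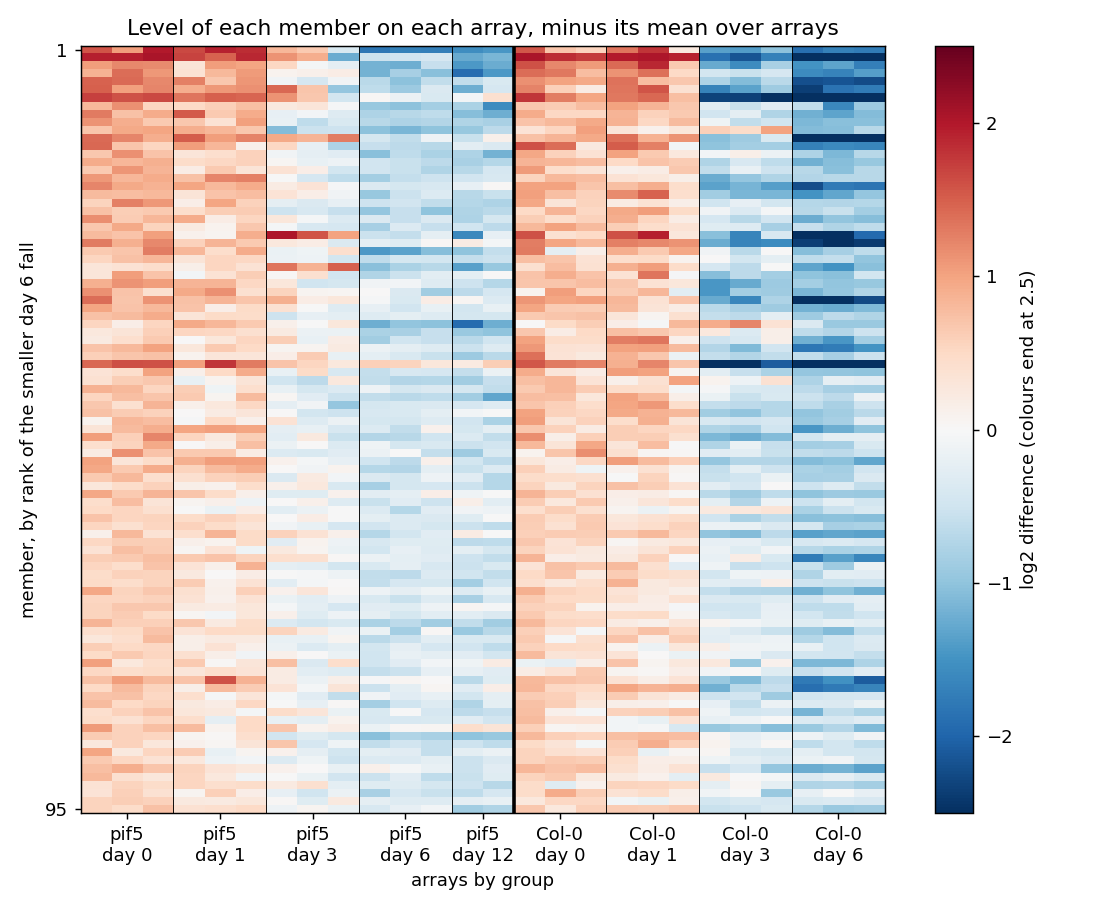
Level of each of the 95 members (y axis, by rank of the smaller day 6 fall) on each of the 26 arrays (x axis, pif5 groups left of Col-0 groups), minus the member's mean over arrays, log2 (red higher, blue lower). Day 3 arrays of pif5 are near white for most members while Col-0 day 3 arrays are mostly blue, as in the array medians of 5.65 to 6.01 in pif5 and 5.06 to 5.24 in Col-0.

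The members followed a shared course. Each member's level over the 26 arrays correlated with the mean of all members with a Pearson r between 0.56 and 0.98 (median 0.89), and 36 members were above 0.9. The median r between pairs of members was 0.78. All members were chosen for lower day 6 values, and the 26 points share 9 groups, so these values are descriptive. Of probe sets outside the set, 13506095 was the most like the mean of the members, with r = 0.98 over 26 arrays. It was followed by 13526409 (r = 0.98), 13542416 (r = 0.97), 13416050 (r = 0.96) and 13345959 (r = 0.96). Each missed the day 1 limit. For 13506095 the day 1 change was -1.06 in pif5 and -0.76 in Col-0, and the day 6 change was -4.26 in pif5 and -4.89 in Col-0.

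The rule used no day 3 and no day 12 array, so the comparisons among those arrays rest on values that did not choose the members. The first asks whether pif5 leaves differed from Col-0 leaves at day 3. In pif5, 39 of the 95 members were higher (41.1%) and 4 lower (4.21%) by limma's moderated test with Benjamini-Hochberg adjustment over all probe sets at 0.05. Over all 26676 probe sets, 18.3% were called, 8.53% higher and 9.8% lower. Those shares include many dim probe sets, while the members' light levels lay at percentile 50.2 or above, with a median of 82.8. With only the 13338 probe sets at or above the median level tested, 2341 were higher and 2575 lower. Of the 84 members among them 40 were higher and 5 lower. The median difference of the members was 0.40, against -0.02 over all probe sets. The difference was above 0 at 78 members. Among the early falls 601 of 1895 were higher in pif5 (31.7%) and 96 lower, with a median difference of 0.22. Of the 324 probe sets within the day 1 limit whose day 6 change reached -0.8 in Col-0 only, 170 were higher in pif5 and 1 lower, with a median of 0.44. Of the 125 that reached it in pif5 only, 3 were higher and 42 lower, with a median of -0.27. Both of these sets were chosen for unlike day 6 changes in the genotypes. That choice favours a day 3 gap of the same sign, so no conclusion is drawn from their contrast. The differences between these sets were not tested.

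The 39 higher members differed by 0.41 to 2.87 on the log2 scale, with a median of 0.96, and 17 of them by at least 1. In light the members were already slightly higher in pif5, with a median difference of 0.08 and a positive sign at 72 of 95. The light arrays were used by the rule and this offset carries no test. Leaving out single arrays gave 32 to 43 higher members. The 4 lower calls were less firm: they were 1 without pif5 day 3 replicate 1 and 2 without pif5 day 3 replicate 2, Col-0 day 3 replicate 1 or Col-0 day 3 replicate 2, and 2 with quantile normalization. The median width of the 95% interval of a member's difference was 0.68. The intervals are not adjusted for the number of probe sets, while the calls are. A member could thus stay uncalled although its interval was wholly positive, as at 13401962 (0.14 to 0.94). The 52 members that were not called are not shown to be without a difference.

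**Figure D4:**
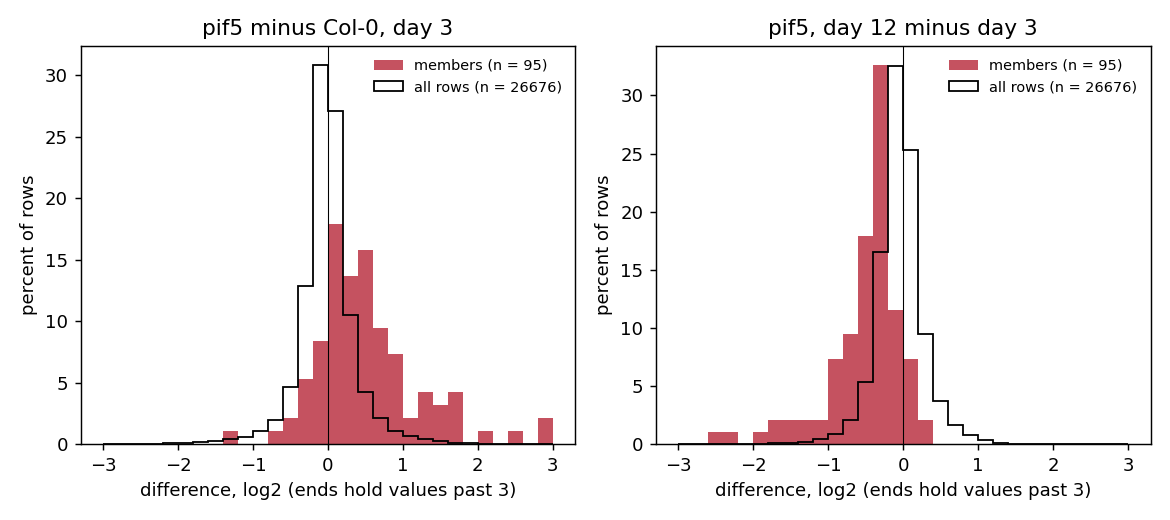
Distribution of the log2 difference (x axis) over the 95 members (red) and all 26676 probe sets (black outline), as percent of rows (y axis), for pif5 minus Col-0 at day 3 (left) and pif5 day 12 minus day 3 (right). The members' median is 0.40 on the left, against -0.02 over all, and -0.38 on the right, against -0.05 over all.

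Members were also grouped by the size of their pif5 change at day 6 relative to that of Col-0. Among the 15 members whose pif5 change at day 6 was under 50% of the Col-0 change, 14 were called higher in pif5 at day 3, with a median difference of 1.46. Among the 22 members with 50% to under 75%, 14 were called higher, with a median of 0.60. Among the 25 with 75% to under 100%, 6 were called higher and 1 lower, with a median of 0.25. Among the 33 members whose pif5 change at day 6 was as large as that of Col-0 or larger, 5 were called higher and 3 lower, with a median of 0.09. The day 6 ratio comes from the arrays of the rule, and this grouping was made after the values were seen. Grouping by unlike day 6 changes favours a day 3 gap of the same sign, so no conclusion is drawn from these classes.

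Most of the members with the largest day 3 gaps had a much larger day 6 change in Col-0 than in pif5. Probe set 13419284 had 8.16, 7.99 and 7.71 in pif5 at day 3, against 4.92, 4.96 and 5.36 in Col-0. The groups were far apart, with a difference of 2.87 ± 0.17 (SE; limma adjusted p = 5.6e-12). In light it stood at 8.99 ± 0.09 in pif5 and 8.79 ± 0.17 in Col-0, and at day 6 at 7.93 ± 0.18 in pif5 and 3.35 ± 0.12 in Col-0 (SD, n = 3 each). Its level in pif5 was 7.67 and 8.06 at day 12, a difference from day 3 of -0.08 that missed the threshold (limma adjusted p = 0.86).

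Probe set 13531040 had 8.37, 7.92 and 6.79 in pif5 at day 3, against 4.93, 4.91 and 4.72 in Col-0, a difference of 2.84 ± 0.25 (SE; limma adjusted p = 3.4e-09). The pif5 arrays were spread widely but stayed above all Col-0 arrays. At day 6 it stood at 7.09 ± 0.20 in pif5 and 3.66 ± 0.11 in Col-0 (SD, n = 3 each). Probe set 13495603, which held the deepest Col-0 change of the set, had 10.73, 10.51 and 8.36 in pif5 at day 3, against 7.73, 7.43 and 7.92 in Col-0. Its difference was 2.17 ± 0.32 (SE; limma adjusted p = 9.5e-06). Replicate 3 of pif5 was near the Col-0 level, and the difference was 2.93 without that array and 1.74 without replicate 1.

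Probe set 13499630 stayed near light in pif5 until day 3 and dropped later. It had 9.10, 8.99 and 9.42 in pif5 at day 3, against 7.10, 7.25 and 7.76 in Col-0, a difference of 1.80 ± 0.19 (SE; limma adjusted p = 5.7e-08). Its light level was 9.33 ± 0.27 in pif5 and 8.99 ± 0.11 in Col-0 (SD, n = 3 each), so 10.2% of the day 6 change had been reached by day 3 in pif5 and 32.7% in Col-0. At day 6 it had 7.70, 7.53 and 8.03 in pif5, against a mean of 4.03 ± 0.08 in Col-0 (SD, n = 3). Probe set 13339127 had 6.62, 5.92 and 6.02 in pif5 at day 3, against 4.47, 4.11 and 4.97 in Col-0, a difference of 1.67 ± 0.21 (SE; limma adjusted p = 8.7e-07). Its day 6 change was -1.14 in pif5 and -3.60 in Col-0.

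By group means, a pair of members stood above light in pif5 at day 3 and below it later. Probe set 13471921 had 9.22, 8.78 and 8.20 in pif5 at day 3, against 6.16, 5.55 and 6.80 in Col-0, a difference of 2.56 ± 0.40 (SE; limma adjusted p = 2.7e-05). Its light level was 8.04 ± 0.17 in pif5 and 8.02 ± 0.67 in Col-0 (SD, n = 3 each). The highest pif5 light array had 8.23, above the lowest pif5 day 3 array, so light and day 3 overlapped in pif5. Its day 6 level was 6.74 ± 0.20 in pif5 and 4.45 ± 0.70 in Col-0 (SD, n = 3 each). Probe set 13501655 had 6.86, 6.40 and 7.02 in pif5 at day 3, against 5.11, 4.86 and 5.51 in Col-0. All 3 pif5 arrays lay above all pif5 light arrays, which had 5.83, 5.88 and 5.97. The difference between the genotypes was 1.60 ± 0.18 (SE; limma adjusted p = 2.3e-07), and at day 6 the means were 4.68 ± 0.18 in pif5 and 4.24 ± 0.23 in Col-0 (SD, n = 3 each).

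Of the 4 members called lower in pif5 at day 3, the difference was largest at 13502490. Probe set 13502490 had 3.71, 4.26 and 4.28 in pif5 at day 3, against 5.39, 5.25 and 5.79 in Col-0. The groups did not overlap, and the difference was -1.39 ± 0.17 (SE; limma adjusted p = 5.6e-07). Col-0 at day 3 was within its light range of 5.14 to 5.81, and at day 6 both genotypes were low, with 3.73 ± 0.07 in pif5 and 3.84 ± 0.23 in Col-0 (SD, n = 3 each). Probe set 13511153 had 6.06, 5.93 and 6.23 in pif5 at day 3, against 6.87, 7.17 and 6.30 in Col-0, a difference of -0.70 ± 0.22 (SE; limma adjusted p = 0.023). That call was lost when either of Col-0 day 3 replicates 1 and 2 or of pif5 day 3 replicates 1 and 2 was left out, with limma adjusted p between 0.064 and 0.17. Probe sets 13516306 and 13490792 differed by -0.42 ± 0.12 and -0.34 ± 0.12 (SE; limma adjusted p = 0.017 and 0.04973), and both calls were lost with quantile normalization (limma adjusted p = 0.096 and 0.2).

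**Figure D5:**
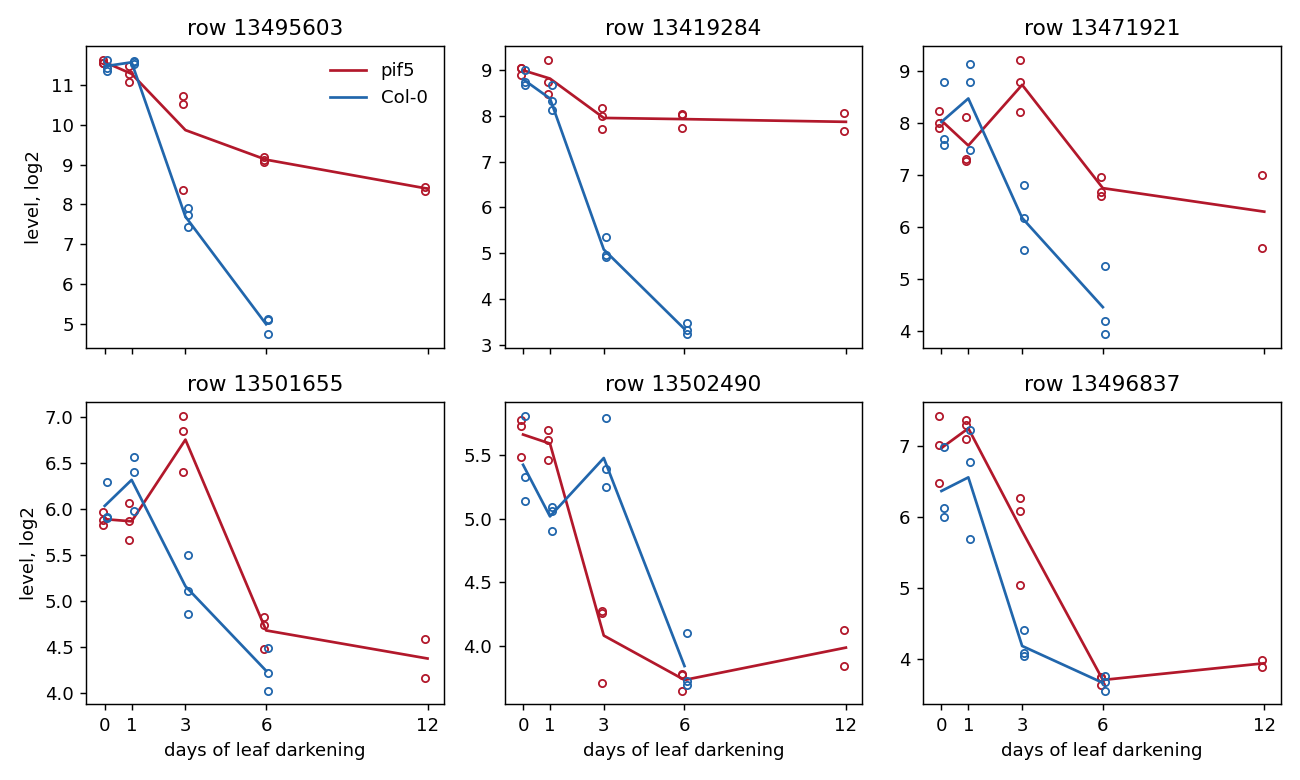
Level (y axis, log2, a scale of its own in each panel) against days of darkening (x axis) of 6 members, with single arrays as open circles and lines through the group means, pif5 in red and Col-0 in blue. Probe set 13419284 stays at 7.93 in pif5 at day 6, against 3.35 in Col-0, while 13502490 is lower in pif5 than in Col-0 at day 3 and 13496837 reaches 3.71 in pif5 and 3.66 in Col-0 at day 6.

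The second comparison sets pif5 leaves at day 12 against day 3. The members were chosen near light at day 1 and below it at day 6 in pif5, which favours a lower level after day 3, so the direction of this difference is not independent of the choice. Between day 6 and day 12 the median difference was only the -0.05 given above. At day 12, 28 of the 95 members were lower than at day 3 (29.5%) and none was higher by limma's moderated test with Benjamini-Hochberg adjustment at 0.05. Over all probe sets, 10.3% were called, 5.72% lower and 4.58% higher. That split depended on scaling: 1222 probe sets were higher and 1527 lower as deposited, 1516 and 1325 with quantile normalization, and 1756 and 1029 with arrays centred on their medians. The members had 24 lower and 0 higher under both of these scalings, with a median of -0.30 under centring. With only the 13338 probe sets at or above the median level tested, 1628 were lower and 1285 higher. Of the 84 members among them 27 were lower and 0 higher. At an unadjusted p under 0.05, 52 members were lower and 0 higher, against 13.3% lower and 9.03% higher over all probe sets. The median difference was -0.38, against -0.05 over all probe sets, and it was below 0 at 86 members. Only 2 arrays make up day 12, and the count was 17 without its replicate 1 and 16 without its replicate 2.

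Of the 1895 early falls, 147 were lower and 150 higher over the same days as deposited, with a median difference of -0.01. With arrays centred on their medians 97 were lower and 214 higher, with a median of 0.07. The early falls were defined by a fall at day 1, which favours a smaller later change than in the members. The 125 probe sets that met the day 6 limit in pif5 only, chosen on the same pif5 values as the members, had 34 lower and 0 higher, with a median of -0.36. The 324 that met it in Col-0 only had 29 lower and 15 higher as deposited, with a median of -0.08, and 21 of each with centring. The differences between these sets were not tested.

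The 28 lower members differed by -2.44 to -0.42, with a median of -0.84, and 10 of them by at least 1 in size. Of the 28, 13 were also among those higher in pif5 than in Col-0 at day 3, 1 was among those lower and 14 were called in neither direction there. A further 26 members were called higher at day 3 and not called at day 12, and 38 were called in neither comparison. The median width of the 95% interval for the later comparison was 0.76.

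Of the leading members, 13496837 had the largest fall common to both genotypes, with day 6 changes of -3.26 in pif5 and -2.70 in Col-0. It had 3.89 and 3.99 in pif5 at day 12, against 6.27, 6.08 and 5.05 at day 3, a difference of -1.86 ± 0.33 (SE; limma adjusted p = 0.0004). At day 6 it had 3.64, 3.75 and 3.73 in pif5, against 3.56, 3.75 and 3.68 in Col-0, so the genotypes were level there. At day 3 pif5 stood above Col-0, which had 4.09, 4.05 and 4.41, by 1.62 ± 0.30 (SE; limma adjusted p = 0.00019). The table holds no background flags, so whether levels near 3.7 were above background was not analysed here. The same limit applies to other members with low levels. At day 6, 41 of the 95 members lay below the median of all probe sets in Col-0 and 25 in pif5.

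Probe set 13416169 had 5.52 and 5.99 in pif5 at day 12, against 7.50, 7.54 and 7.61 at day 3, a difference of -1.80 ± 0.22 (SE; limma adjusted p = 5.8e-06). Its pif5 means were stepwise lower at each later time: 8.54 in light, then 8.17, 7.55, 6.40 and 5.76 after 1, 3, 6 and 12 days. Col-0 stood at 5.89 by day 6. Probe set 13429479 had 3.53 and 3.72 in pif5 at day 12, against 5.49, 4.92 and 4.75 at day 3, a difference of -1.43 ± 0.28 (SE; limma adjusted p = 0.00097). In Col-0 it had 3.72, 3.40 and 4.15 at day 3 already, so the low level came earlier there.

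Probe set 13501655, high in pif5 at day 3, had 4.16 and 4.58 at day 12, a difference of -2.39 ± 0.20 (SE; limma adjusted p = 3e-08). Probe set 13471921 averaged 6.29 ± 1.00 in pif5 at day 12 (SD, n = 2), a wide spread, with a difference of -2.44 ± 0.45 from day 3 (SE; limma adjusted p = 0.00056). Without day 12 replicate 1 that difference was -1.73. Probe set 13511153 had 4.03 and 4.71 at day 12, a difference of -1.70 ± 0.25 (SE; limma adjusted p = 3.5e-05).

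The remaining leading members kept to the general course. Probe set 13355099 stood at 8.26 ± 0.19 in pif5 at day 3, against 7.61 ± 0.22 in Col-0 (SD, n = 3 each), a difference of 0.65 ± 0.16 (SE; limma adjusted p = 0.0053). Its day 12 level of 7.96 in pif5 did not differ from day 3 beyond the spread (difference -0.30, limma adjusted p = 0.37). Probe set 13387390 had 7.46, 6.72 and 5.06 in pif5 at day 3, against 4.35, 4.69 and 5.13 in Col-0, a difference of 1.69 ± 0.38 (SE; limma adjusted p = 0.0016) although the lowest pif5 array lay within the Col-0 range. Probe set 13401962 had 6.71, 6.76 and 6.44 in pif5 at day 3, against 6.20, 5.90 and 6.18 in Col-0. The groups did not overlap but the difference of 0.54 ± 0.19 missed the threshold (SE; limma adjusted p = 0.051), while its day 12 level was lower than at day 3 by limma's test, with a difference of -1.36 ± 0.22 (SE; limma adjusted p = 0.00012).

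The members that had gone furthest by day 3, by the share averaged over both genotypes, showed another shape. Probe set 13417026 had 8.24, 8.75 and 7.94 in pif5 at day 3, against 7.37, 7.25 and 7.42 in Col-0. By day 6 it had 7.77, 7.81 and 8.00 in pif5, against 8.04, 8.26 and 8.27 in Col-0. In Col-0 its day 3 arrays thus all lay below its day 6 arrays. In pif5 the day 3 mean of 8.31 was still above all day 6 arrays. The pif5 level at day 3 was higher than in Col-0 by 0.96 ± 0.20 (SE; limma adjusted p = 0.00065). Probe set 13422082 stood at 7.31 ± 0.44 in pif5 at day 3, against 6.33 ± 0.28 in Col-0, and at 7.38 ± 0.14 in pif5 at day 6, against 6.60 ± 0.07 in Col-0 (SD, n = 3 each). Probe sets 13476002 and 13524574 had reached 115% and 103% of their day 6 change by day 3 in pif5, and 119% and 100.2% in Col-0. Neither was called in the day 3 comparison (limma adjusted p = 0.15 and 0.44) or at day 12 (limma adjusted p = 0.95 and 0.91).

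By the end of each series pif5 stood above Col-0 at most members, as it already had in light. In light pif5 was above Col-0 at 72 of the 95 members (75.8%), with a median difference of 0.08, against 53.6% of all probe sets. The pif5 mean at day 12 was above the Col-0 mean at day 6 at 69 of 95 members, with a median difference of 0.20 and a range from -0.83 to 4.52. The same held for 46.9% of all probe sets, with a median of -0.02, and for 74.4% of the early falls, with a median of 0.32, against 72.6% of the members. Probe sets 13419284, 13499630 and 13531040 stood 4.52, 3.92 and 3.75 higher in pif5 at day 12 than in Col-0 at day 6. The days differ and the Col-0 day 6 arrays were used by the rule, so these values are given side by side with no test.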

How the data were processed

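The authors deposited log2 values for 26676 probe sets on 26 arrays. Per the labels' protocols, biotin-labelled cRNA was hybridised, and the submitters' processing notes name the package oligo. The background correction and normalization behind them was not given in the sources used here, and the values were tested as deposited. Members and lists were chosen with earlier results of these data known.

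Groups came from sample titles. All 9 groups entered 1 linear model, fitted by limma (version 3.58.1, under R 4.3.3) with empirical Bayes moderation and 17 residual degrees of freedom, with Benjamini-Hochberg adjustment over all probe sets. Only pif5 against Col-0 at day 3 and pif5 day 12 against day 3 were tested. In simulated arrays 200 of 26676 probe sets were changed, with independent noise and no array effects. The fit recovered 93% of changes of 1 on the log2 scale in the first comparison and 96% in the second. There were 19 and 12 false calls. In the data 4889 and 2749 probe sets were called, so these rates may not carry over.

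Probe sets named in the text were the 8 leading members, the 3 just inside and outside the limit and the 5 most like rows. Also named were, in each test, up to 6 members per direction with the largest called differences and arrays not overlapping. The 4 with the largest and smallest share at day 3, averaged over genotypes, were added. Alternatives were quantile normalization, median centring, a replicate block, a filter on dim probe sets, the compared groups alone, trended robust moderation, single arrays left out, other day 1 limits and group medians. The number of arrays limits precision. No sequences were matched to probe sets.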

Additional observations from a re-analysis of the deposited data

Results flagged for a closer look

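At 2 members all day 3 arrays lay above the light mean in pif5 and below it in Col-0. Probe set 13471921 had a day 3 change from light of 0.69 in pif5 and -1.85 in Col-0. Probe set 13501655 had a day 3 change of 0.87 in pif5 and -0.88 in Col-0. The difference in response from light was not tested, because the light arrays were used to choose the members. No group held the 4 or more arrays that a search for single deviating arrays needs.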

How the results depend on the processing

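More members were higher than lower in pif5 at day 3, and more lower than higher at day 12, under every alternative run. The direction at day 12 was favoured by the choice of members, so its stability is no independent support. Higher members at day 3 numbered 37 to 42 under the alternatives that leave out no single array and 32 to 43 with single arrays left out. All calls together numbered 33 to 47, and lower members 1 to 5. The fit of the compared groups alone used only their arrays, and the filter on dim probe sets tested 84 of the 95 members. With quantile normalization 2 were lower. At day 12 lower members numbered 24 to 31 with no single array left out and 16 to 30 with single arrays left out, and higher members 0 throughout. A replicate block gave 41 higher and 4 lower at day 3 and 31 lower at day 12. Replicate numbers gave no clear pairing of the arrays. Same-numbered arrays had correlations of their deviations from group means between -0.17 and 0.19. The medians were 0.022, 0.015 and 0.036 for replicates 1, 2 and 3. Arrays with unlike numbers were not compared, so a weak shared replicate effect cannot be told from none. The block changed some calls, but no count of called members by over 1.5 times. The median share reached at day 3 was 60.4% to 71.5% in pif5 and 70.4% to 74.9% in Col-0 with single arrays left out, and 70.8% in Col-0 with quantile normalization. The median day 12 change was -1.25 to -1.15 with single arrays left out, -1.04 with quantile normalization and -1.08 with arrays centred on their medians. Membership was less stable. The rule kept 74 to 95 of the members with single arrays left out, within 88 to 102 rows in all, 55 with quantile normalization, 69 with arrays centred on their medians and 61 with group medians in place of means. A day 1 limit of 0.3 kept 31, by construction a subset, and a limit of 0.7 filled all 200 places, with 89 of the members. Of 512 alternative values for the 16 named differences, none changed sign and 28 lost significance, all among the 3 smallest lower calls at day 3. The cause of these changes was not tested.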
